A study of Mus musculus with 6 samples.

Results

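This account covers the direct comparison of macrophages lacking both liver X receptors (LXRdKO) with macrophages lacking cholesterol 25-hydroxylase (Ch25hKO). The comparison was defined by sample labels alone, as 2 LXRdKO libraries against 2 Ch25hKO libraries, which are 4 of the 6 libraries of the study. The other 2 libraries came from wild-type cells (WT). They entered neither the fit nor the fold changes, and their levels are given as a description so that a reader can see on which side of a difference the unmodified cells lay. All cells were bone marrow-derived macrophages of strain C57BL/6, grown for 7 days in DMEM with 10% M-CSF, the growth factor that drives macrophage development. All had then received LPS from E. coli 0111:B4 at 100 ng/ml for 8 h, so no value here shows a response to LPS itself. The labels give the genotypes as Ch25h-knockout and LXRab-knockout, the latter covering Nr1h3 (LXRα) and Nr1h2 (LXRβ). They give neither the deleted part of each gene nor the ages of the mice, and they do not say whether libraries of a group came from separate animals or cultures. P-values thus reflect the spread between these libraries alone, and that spread may be technical.

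Both genotypes interrupt sterol sensing, at different points. Ch25h makes 25-hydroxycholesterol, an oxysterol that holds the SREBP transcription factors in the endoplasmic reticulum through INSIG proteins and that can also bind LXRs. Processed SREBP2 switches on the enzymes of cholesterol synthesis and genes of cholesterol uptake, and SREBP1 those of fatty acid synthesis. LXRs are nuclear receptors that pair with RXR, sense oxysterols and desmosterol, and switch on cholesterol export genes such as Abca1 and Abcg1. In macrophages LXRs are also known to restrain inflammatory genes, and Ch25h is itself induced by interferon.

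The 4 libraries held 41650513 to 45872964 counts each. The ribosomal RNA precursor Rn45s took 1.26% of the counts in both Ch25hKO libraries and 1.01% and 1.06% in the LXRdKO libraries, and Malat1, a nuclear RNA, took 1.36% to 1.79% with the highest share in Ch25hKO replicate 1. Ribosomal protein genes took 1.10% to 1.19%. The part of these differences in the results was not tested. Replicate libraries were not copies of each other, since their counts differed beyond sampling noise (chi-square divided by its degrees of freedom, 5.19 for Ch25hKO and 4.30 for LXRdKO). The WT libraries differed most from each other, at 12.4. Positions of WT given below rest on the mean of these libraries and were not tested. Levels are CPM, read counts scaled to a common library size, and can be compared between libraries but not between genes of different length. Differences are log2 fold changes of LXRdKO over Ch25hKO ± standard error with 2 libraries in each group, and adjusted p-values are those of the edgeR quasi-likelihood F test, corrected over 12673 genes by the Benjamini-Hochberg method. In what follows "higher" and "lower" are used of genes with an adjusted p under 0.05 and refer to LXRdKO relative to Ch25hKO.

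The genes named in the labels were read first. Ch25h (chromosome 19 between 34473778 and 34475164 on the minus strand, GRCm38) had 42 and 57 counts in Ch25hKO against 2509 and 2763 in LXRdKO. This was the largest difference among the more abundant genes, at 5.71 ± 0.10 (edgeR adjusted p = 7.56e-40). Nr1h2 (chromosome 7, minus strand, 44549616 to 44553951) had 1408 and 1507 counts in Ch25hKO and 35 in each LXRdKO library, a difference of -5.39 ± 0.11. Nr1h3 (chromosome 2, minus strand, 91184061 to 91202834) had 806 and 859 counts in Ch25hKO and 42 and 41 in LXRdKO, a difference of -4.34 ± 0.13. Each library was thus low in the genes its label names. On the CPM scale Ch25h was at 57.2 and 62.5 in LXRdKO and 70.2 and 70.8 in WT, Nr1h2 at 32.5 and 34.6 in Ch25hKO and 29.1 and 32.3 in WT, and Nr1h3 at 18.6 and 19.7 in Ch25hKO and 15.98 and 17.4 in WT.

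Of the 12673 genes tested, 2926 were higher (23.1%) and 2823 lower (22.3%), so that 5749 genes passed the test (45.4%). Most of these differences were small: their median size was 0.38 on the log2 scale, and 3709 of them, 64.5%, were under 0.5. At least 2-fold differences were found in 292 genes that were higher (2.30%) and 341 that were lower (2.69%), together 633 genes (4.99%). In 9097 genes (71.8%) the libraries of the groups did not overlap. The counts over gene lists below are to be read against these shares, and the lists were chosen with earlier results of these data known. Among the genes that passed, the mean WT level lay nearer to LXRdKO in 3320 and nearer to Ch25hKO in 2429, and it lay between the genotypes in 3065, above both in 1305 and below both in 1379. The median over all genes was -0.01.

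**Figure D1:**
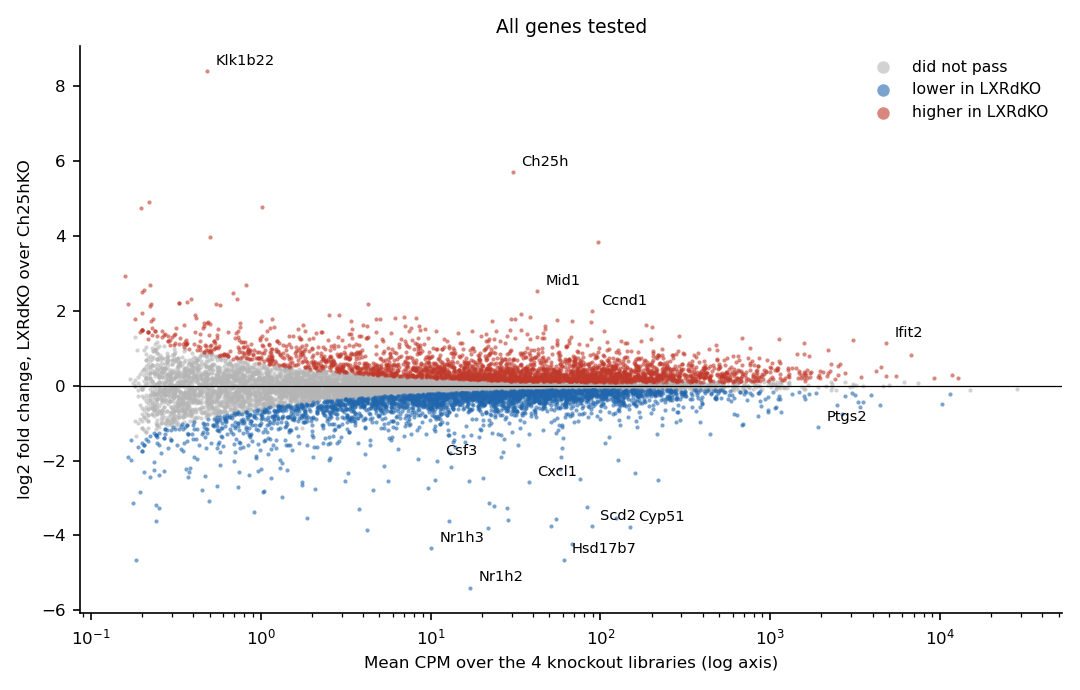
log2 fold change of LXRdKO over Ch25hKO (vertical axis) against the mean level in CPM over the 4 knockout libraries (horizontal log axis), with 1 point per gene tested. The 2926 higher genes are red, the 2823 lower genes blue and the others grey; among genes at a mean of at least 5 CPM, Ch25h stands highest, and Nr1h2, the sterol gene Hsd17b7 and Nr1h3 stand lowest.

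Cholesterol synthesis genes had the largest median differences of the 37 gene lists examined. All 9 genes of the mevalonate and isoprenoid steps were tested and 8 were lower in LXRdKO, with a median of -2.79. Of the 13 genes from squalene to cholesterol, 12 were lower, with a median of -3.26, and 11 of these differed at least 2-fold, as did all 8 of the earlier steps. No gene of either list was higher. In all 20 the mean WT level lay nearer to LXRdKO. The comparison thus set Ch25hKO cells with high transcript levels of the pathway against LXRdKO cells whose levels lay nearer to WT.

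Near the start of the pathway, Hmgcs1 (chromosome 13, plus strand, 119690379 to 119708260) makes HMG-CoA. It was at 227 and 229 CPM in Ch25hKO, 19.5 and 20.1 in LXRdKO and 17.4 and 15.8 in WT, a difference of -3.52 ± 0.05 (edgeR adjusted p = 1.32e-42). Acat2, the thiolase that feeds HMG-CoA synthesis, was at -3.12 ± 0.08. In none of these genes did the libraries of the genotypes overlap. The kinases and decarboxylase that turn mevalonate into isopentenyl pyrophosphate differed about alike, with Mvk at -2.79 ± 0.15, Pmvk at -2.45 ± 0.07 and Mvd at -2.54 ± 0.08. Idi1, the isomerase that follows, was at 40.02 and 41.8 CPM in Ch25hKO and 2.85 and 2.96 in LXRdKO (-3.81 ± 0.08). Fdps, which makes farnesyl pyrophosphate, was at 94.3 and 96.4 and 7.11 and 7.06 CPM (-3.75 ± 0.06). Ggps1, which leads from there to geranylgeranyl groups and away from sterols, was the exception, at 33.3 and 33.99 CPM in Ch25hKO and 36.4 and 34.9 in LXRdKO (0.09 ± 0.06, edgeR adjusted p = 0.211).

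Beyond the branch point, Hsd17b7, a reductase of late sterol synthesis (chromosome 1, minus strand, 169949535 to 169969241), had the largest fold difference of the pathway. Its level was 118 and 116 CPM in Ch25hKO, 4.92 and 4.41 in LXRdKO and 3.89 and 3.82 in WT, or -4.65 ± 0.07 (edgeR adjusted p = 1.32e-42). Sqle, squalene epoxidase and a rate-limiting step, was at 131 and 129 CPM against 7.16 and 6.76 (-4.22 ± 0.06). Cyp51, the lanosterol demethylase, reached 281 and 277 CPM in Ch25hKO against 19.4 and 21.2 in LXRdKO (-3.78 ± 0.05). Fdft1, which makes squalene, was at -3.56 ± 0.06, Dhcr7 at -3.30 ± 0.17, Lss at -3.26 ± 0.07 and Sc4mol, the C4-methylsterol oxidase, at -3.23 ± 0.05. Dhcr7 is the reductase that finishes the Kandutsch-Russell branch. Sc5d and Nsdhl differed less, by -2.21 ± 0.05 and -1.91 ± 0.06. The smallest differences that passed were those of Tm7sf2 (2.95 and 3.21 CPM against 1.66 and 1.31, -1.05 ± 0.18) and Lbr (-0.98 ± 0.09). Both encode sterol C14 reductases, and that of Lbr is also the lamin B receptor of the inner nuclear membrane. Ebp, the sterol isomerase, was at 9.34 and 8.17 CPM in Ch25hKO and 8.34 and 8.098 in LXRdKO, where the groups overlapped (-0.09 ± 0.10, edgeR adjusted p = 0.489).

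**Figure D2:**
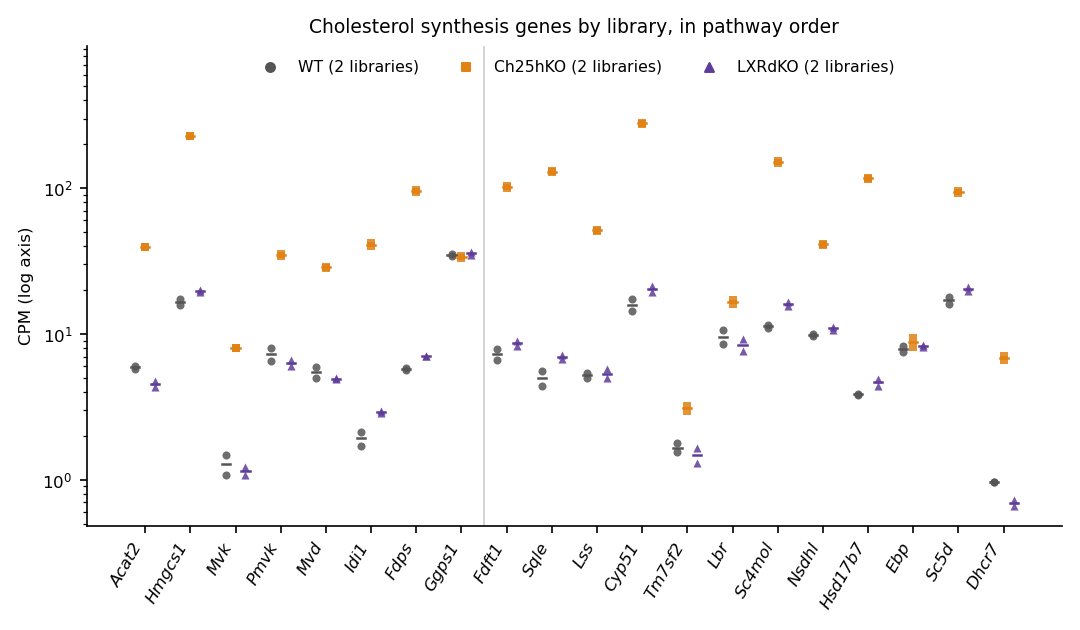
CPM (log axis) of 20 of the cholesterol synthesis genes tested, in pathway order, with 1 point per library and a bar at the mean of each genotype (2 libraries each). In 18 of the genes the Ch25hKO libraries lie above the other 4, and Ggps1 and Ebp show no such gap.

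Promoters of these genes were inspected because so many members moved together. RefSeq start sites on GRCm38.p6, with 250 bases before to 50 after the start, were matched for 17 of the 22 genes and for 9904 of all genes tested. The CCAAT box, bound by NF-Y, a factor that works beside SREBP at many of its promoters, was searched as CCAAT on both strands. It occurred in 16 of the 17 (94.1%) against 42.7% of all genes tested. A form of the sterol regulatory element, TCACNCCAC on both strands, occurred in 1 of the 17, Hmgcs1, and in 1.36% of all. A match is a description of letters, not of binding, and many known elements differ from this form. The 250 bases before the start of 3 genes whose stretch holds no annotated exon are shown 5′ to 3′ on the gene's strand, with matches to either pattern in capitals, for Hmgcs1 (chr13:119690101-119690350, plus strand), Mvd (chr8:122443423-122443672, minus strand) and Sc5d (chr9:42264301-42264550, minus strand):
Hmgcs1: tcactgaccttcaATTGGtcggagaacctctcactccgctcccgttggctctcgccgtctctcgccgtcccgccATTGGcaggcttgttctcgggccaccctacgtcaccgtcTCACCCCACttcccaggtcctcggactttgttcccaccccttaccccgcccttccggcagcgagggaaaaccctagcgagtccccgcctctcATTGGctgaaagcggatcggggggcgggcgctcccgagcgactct
Mvd: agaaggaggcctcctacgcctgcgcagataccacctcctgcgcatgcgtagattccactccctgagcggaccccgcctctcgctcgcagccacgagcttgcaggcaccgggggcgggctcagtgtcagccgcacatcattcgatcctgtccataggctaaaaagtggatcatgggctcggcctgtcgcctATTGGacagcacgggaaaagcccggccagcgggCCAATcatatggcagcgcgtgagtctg
Sc5d: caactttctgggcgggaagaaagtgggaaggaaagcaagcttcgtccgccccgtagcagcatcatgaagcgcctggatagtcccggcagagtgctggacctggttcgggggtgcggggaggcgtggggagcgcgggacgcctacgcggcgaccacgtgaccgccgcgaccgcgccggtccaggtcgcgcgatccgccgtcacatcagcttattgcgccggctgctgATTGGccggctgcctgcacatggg
In Hmgcs1 the capitals mark 3 CCAAT boxes, read as ATTGG on this strand, and 1 sterol element form. Their first bases lie 237, 176, 137 and 45 bases before the start, and the match at 137 is the sterol element. In Mvd they mark 2 CCAAT boxes and in Sc5d 1. CCAAT is not particular to sterol genes: of the cell cycle genes, which come below, 18 of 24 matched promoters held it.

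Some regulators of the pathway, such as Srebf2 and Insig1, differed in the same direction as the enzymes, and others did not. Of 14 genes of SREBP processing, cholesterol uptake and transport, 9 were lower and 2 higher, with a median of -0.44. Among the 11 that passed, mean WT was nearer to LXRdKO in 6 and to Ch25hKO in 5. Srebf2, which encodes SREBP2, was at 91.6 and 93.8 CPM in Ch25hKO, 23.9 and 25.2 in LXRdKO and 15.96 and 14.3 in WT (-1.91 ± 0.05, edgeR adjusted p = 9.88e-32). Here WT lay below both genotypes. Insig1, the sterol-regulated retention protein of SREBPs, was at 124 and 134 CPM in Ch25hKO and 23.2 and 22.4 in LXRdKO (-2.49 ± 0.05). The cholesterol carrier Stard4 was at 24.4 and 23.3 CPM against 1.71 and 2.15 (-3.62 ± 0.10), and Tmem97 and Lrp8 were lower by -1.52 ± 0.15 and -1.36 ± 0.07. Scap, which escorts SREBPs to the Golgi, did not pass the test (0.13 ± 0.08), and the lysosomal cholesterol carrier Npc2 was higher by 0.20 ± 0.05. The processing genes Mbtps1 and Mbtps2 were at -0.03 and 0.18. Of the 2 higher genes 1 passed without Ch25hKO replicate 1.

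Fatty acid synthesis followed, with 16 of 18 tested genes lower and 0 higher and a median of -0.99. Fasn, fatty acid synthase, was at 44.5 and 40.8 CPM in Ch25hKO, 4.76 and 4.43 in LXRdKO and 4.82 and 4.97 in WT (-3.21 ± 0.08). Scd2, a stearoyl-CoA desaturase and a target of both SREBP1 and LXR (chromosome 19, plus strand, 44293674 to 44306864), took another course: 174 and 159 CPM in Ch25hKO, 13.6 and 11.04 in LXRdKO and 57.01 and 55.9 in WT. Its difference of -3.75 ± 0.07 (edgeR adjusted p = 1.37e-24) therefore spans WT, which lay between. Scd1 had the same order, at 9.71 and 9.404, 1.66 and 1.63 and 6.302 and 5.92 CPM (-2.53 ± 0.13). Among the enzymes of polyunsaturated fatty acid synthesis, Fads2 was at 8.88 and 6.88 CPM against 0.501 and 0.588 (-3.85 ± 0.19) and Fads1 at -1.42 ± 0.06. Elongase and activating genes that were lower included Elovl6 (-2.07 ± 0.25), Elovl5 (-0.79 ± 0.06) and Acsl3 (-2.52 ± 0.10). Acaca, which makes malonyl-CoA, was at -1.19 ± 0.07, Acly, which makes acetyl-CoA from citrate, at -0.76 ± 0.05, and Aacs, which activates acetoacetate, at -2.18 ± 0.09. Acsl4, a ligase with a preference for arachidonic acid, did not pass (-0.01 ± 0.04). Srebf1, which encodes SREBP1, was at 31.5 and 29.1 CPM in Ch25hKO, 18.7 and 19.1 in LXRdKO and 16.3 and 18.9 in WT (-0.68 ± 0.06).

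Genes known as LXR targets did not move as a block. Of 18 tested, 8 were higher and 7 lower in cells lacking the receptors, with a median of 0.11. Abcg1, the exporter of cholesterol to HDL (chromosome 17, plus strand, 31057675 to 31117988), was at 39.6 and 43.6 CPM in Ch25hKO, 131 and 137 in LXRdKO and 269 and 237 in WT. It was thus 3.24-fold higher in the cells without LXRs than in those without Ch25h (1.69 ± 0.05, edgeR adjusted p = 1.56e-30), with WT above both. Abca1, which loads cholesterol onto APOA1, had the same order with smaller gaps, at 485 and 478, 632 and 619 and 674 and 694 CPM (0.38 ± 0.05). Arl4c, a small GTPase, did so too (5.44 and 5.803, 13.1 and 14.1 and 22.3 and 17.98 CPM, 1.28 ± 0.09). Mylip, a ubiquitin ligase, was instead lower, at 34.3 and 33.9 CPM in Ch25hKO and 26.3 and 24.1 in LXRdKO against 94.2 and 86.7 in WT (-0.43 ± 0.06). Lipoprotein genes formed a group in which LXRdKO stood above the other genotypes: Apoe was at 840.1 and 906, 1364 and 1378 and 647 and 592 CPM (0.65 ± 0.05), Apoc2 at 23.2 and 26.2, 48.1 and 51.2 and 16.7 and 17.01 (1.01 ± 0.06) and Pltp, the phospholipid transfer protein, was at 0.47 ± 0.05. Mertk, a receptor for dying cells, and Tgm2, a transglutaminase, were higher by 1.16 ± 0.05 and 0.99 ± 0.04. Lower genes other than Scd1, Scd2, Srebf1, Mylip and the deleted Nr1h3 were Lpcat3 (-0.68 ± 0.06), a lysophospholipid acyltransferase, and Cd5l (-0.97 ± 0.13), a secreted macrophage protein. Smpdl3a, a phosphodiesterase, did not pass (0.06 ± 0.04). The paired half-site that LXR binds with RXR, searched as GGTCA, any 4 bases and AGGTCA on both strands, was in none of the 11 matched promoters of these genes and in 0.0101% of all 9904, a share too low to describe a list with.

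Smaller lists covered other sterol and lipid genes. Cyp27a1, the sterol 27-hydroxylase, was at 2.24 and 2.59 CPM in Ch25hKO and 5.04 and 5.32 in LXRdKO (1.10 ± 0.14), and Osbpl8, an oxysterol-binding protein, was higher by 0.22 ± 0.04. Of 17 lipid droplet and triglyceride genes, 7 were higher and 3 lower, with a median of 0.12, and the count of higher genes was 4 without Ch25hKO replicate 1. Dgat2, which completes triglycerides, was lower (18.8 and 19.8 CPM against 8.75 and 7.31, -1.27 ± 0.08), and Lpin2, a phosphatidate phosphatase, Lipe, hormone-sensitive lipase, and Cpt1a, the entry to mitochondrial fatty acid oxidation, were higher (0.61 ± 0.04, 0.47 ± 0.06 and 0.43 ± 0.05). Of 20 nuclear receptors and related genes, 5 were higher and 5 lower including both LXRs, with Nr4a1 at 0.89 ± 0.14, Nr1d2 at 0.81 ± 0.06 and Thra at -0.67 ± 0.14. The counts of this list were small enough to move with single libraries, to 2 and 3 higher without Ch25hKO replicate 1 and LXRdKO replicate 2, and to 3 lower without Ch25hKO replicate 2 or LXRdKO replicate 1.

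**Figure D3:**
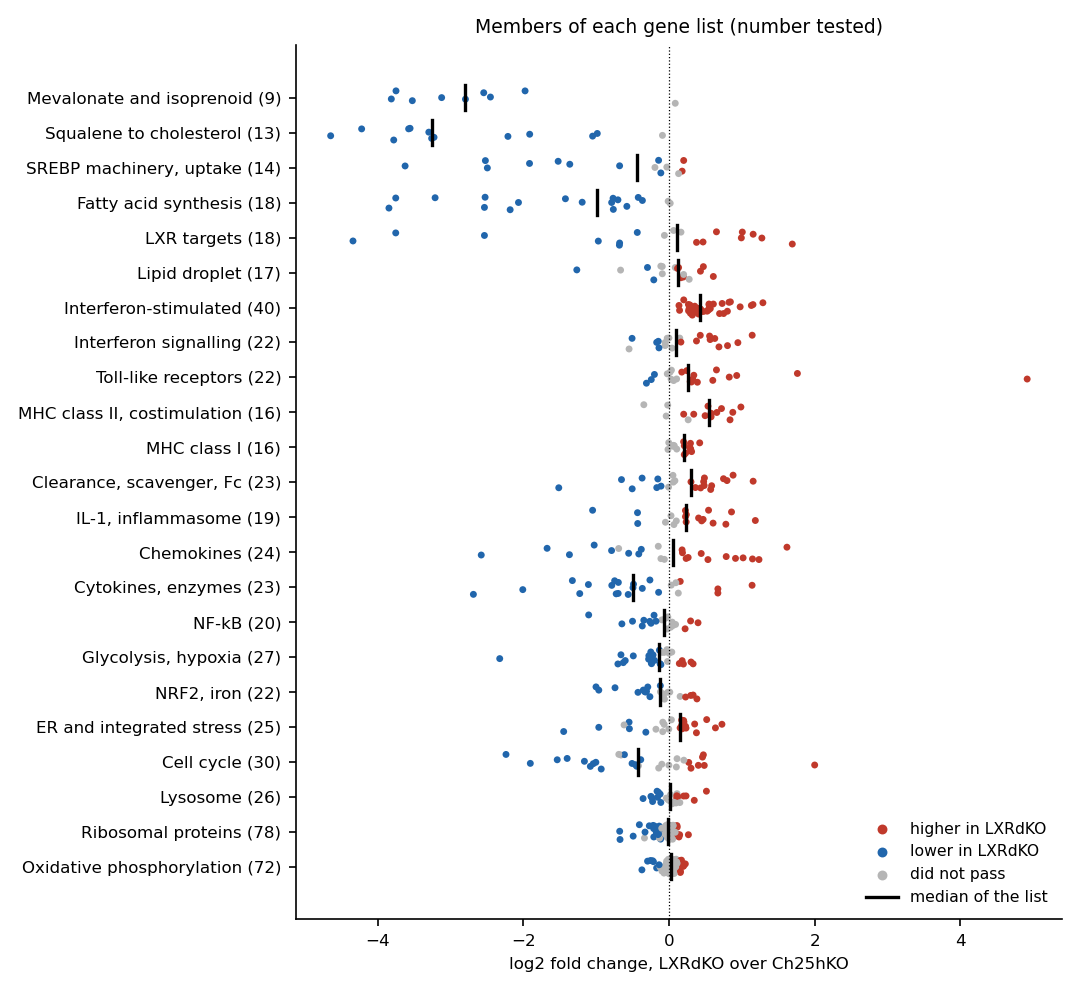
log2 fold change of LXRdKO over Ch25hKO (horizontal axis) for each tested member of 23 gene lists, with 1 point per gene, coloured by whether it was higher, lower or did not pass, and a black bar at the list's median. The medians of the sterol and fatty acid synthesis lists lie to the left of 0, with a few members to its right. The 40 interferon-stimulated genes all lie to the right, and most other lists straddle 0.

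Interferon-stimulated genes were the most uniform group in the other direction. All 40 were tested and all 40 were higher in LXRdKO, from 0.14 ± 0.05 for Herc6, whose call was lost without Ch25hKO replicate 1 or LXRdKO replicate 2, to 1.29 ± 0.05 for Ifit3, with a median of 0.43; 3 of them differed at least 2-fold. Libraries of the genotypes overlapped in none of the 40. In 33 the mean WT level lay nearer to LXRdKO, and in 7 nearer to Ch25hKO. Ifit3, an antiviral protein with tetratricopeptide repeats, was at 372 and 424 CPM in Ch25hKO, 944 and 999 in LXRdKO and 909 and 744 in WT (edgeR adjusted p = 1.00e-22). Ifit2 was at 2838 and 3207, 6325 and 6909.5 and 7475 and 6284 CPM (1.13 ± 0.06) and Ifit1 at 0.84 ± 0.05. These 3 genes lie 89.1, 111.7 and 171.0 kb from Ch25h on chromosome 19, on the flank of the gene deleted in Ch25hKO. The 37 members on other chromosomes were all higher too, with a median of 0.42.

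Among those, Cmpk2, a mitochondrial nucleotide kinase, was at 899 and 1071 CPM in Ch25hKO, 2065 and 2316 in LXRdKO and 2941 and 2545 in WT (1.15 ± 0.07). Rsad2, which encodes viperin, was among the most abundant transcripts of the list, at 4544 and 5211 CPM against 8222 and 9037 (0.82 ± 0.06). Usp18, which removes ISG15 and dampens interferon receptor signalling, was higher by 0.75 ± 0.05, the GTPases Mx1, Gbp5 and Iigp1 by 0.80 ± 0.05, 0.70 ± 0.05 and 0.98 ± 0.06, and the RNA sensor Ifih1 (MDA5) by 0.57 ± 0.05. Of the receptor's own transcription factor complex, Stat2 was higher by 0.41 ± 0.05, near the list's median of 0.43, and Irf9 by 0.20 ± 0.05. Ifi44 and Rtp4 were higher by 0.61 ± 0.05 and 0.55 ± 0.05, and their WT levels (969 and 994 and 479 and 489 CPM) were nearer to those of Ch25hKO (789 and 839 and 426 and 452). Several of these genes, such as the Ifit, Oas, Gbp and Trim30 genes, have close relatives whose reads the authors' counting could have divided, so their individual values are uncertain.

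Promoters were matched for 30 of the 40. A form of the interferon-stimulated response element, GAAA, any 2 bases and GAAA on both strands, occurred in 18 of them (60%) against 4.04% of the 9904. Within the 250 bases before the start alone it occurred in 15 (50%) against 3.48%. The pattern belongs to what defines such genes and is shown for orientation. It is in capitals, with TTTC in place of GAAA where it lies on the other strand, in the stretches before Ifit3 (chr19:34583279-34583528, plus strand), Rsad2 (chr12:26456453-26456702, minus strand) and Isg15 (chr4:156200819-156201068, minus strand), none of which holds an annotated exon:
Ifit3: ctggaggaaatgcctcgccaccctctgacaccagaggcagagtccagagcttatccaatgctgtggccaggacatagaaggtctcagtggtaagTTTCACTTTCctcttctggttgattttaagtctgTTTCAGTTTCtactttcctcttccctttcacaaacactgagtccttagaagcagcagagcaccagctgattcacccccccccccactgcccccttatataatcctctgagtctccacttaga
Rsad2: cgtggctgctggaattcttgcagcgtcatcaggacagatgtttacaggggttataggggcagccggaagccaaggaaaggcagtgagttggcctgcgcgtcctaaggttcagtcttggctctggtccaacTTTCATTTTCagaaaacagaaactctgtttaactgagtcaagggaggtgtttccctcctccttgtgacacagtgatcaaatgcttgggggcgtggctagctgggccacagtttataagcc
Isg15: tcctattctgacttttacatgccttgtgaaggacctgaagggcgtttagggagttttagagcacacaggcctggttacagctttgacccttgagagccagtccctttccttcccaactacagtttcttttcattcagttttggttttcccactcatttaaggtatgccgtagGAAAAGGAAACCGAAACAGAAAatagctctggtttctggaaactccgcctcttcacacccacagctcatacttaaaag
Ifit3 held 2 matches and Rsad2 held 1. Isg15 held 3 that overlap one another, and its transcript was at 552 and 613 CPM in Ch25hKO and 732 and 786 in LXRdKO (0.38 ± 0.05).

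Ligands, receptors and factors of interferon signalling were less uniform, with 10 of 22 higher and 4 lower and a median of 0.10, and with 2 lower without Ch25hKO replicate 2. Ifnb1, which encodes interferon β, had 20 counts summed over Ch25hKO and 45 summed over LXRdKO, a ratio of 2.10 with a 95% counting interval of 1.22 to 3.76. Its difference of 1.14 ± 0.41 (edgeR adjusted p = 0.0211) did not hold with DESeq2, nor with Ch25hKO replicate 1 or LXRdKO replicate 1 left out (adjusted p = 0.163, 0.105 and 0.173). Interferon regulatory factors stood out: Irf5 was at 83.1 and 90.5 CPM in Ch25hKO, 163 and 172 in LXRdKO and 147 and 149 in WT (0.95 ± 0.05), and Irf8, Irf2 and Irf1 were higher by 0.69 ± 0.05, 0.57 ± 0.05 and 0.56 ± 0.04. Irf3, which acts before interferon is made, was at -0.05 ± 0.06 and did not pass. The receptor genes Ifnar1 and Ifngr1 did not pass (-0.05 ± 0.05 and -0.02 ± 0.05). Among other signalling genes, Il10ra and Tyk2 were higher (0.63 ± 0.05 and 0.43 ± 0.04), and Socs3, an inhibitor of cytokine signalling, was lower (-0.51 ± 0.05).

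Toll-like receptor genes were mostly higher as well, at 13 of 22 against 3 lower and a median of 0.27. Tlr9, the endosomal DNA receptor (chromosome 9, plus strand, 106222598 to 106226883), was at 25.4 and 24.8 CPM in Ch25hKO, 80.7 and 89.8 in LXRdKO and 54.4 and 57.8 in WT (1.76 ± 0.05, edgeR adjusted p = 2.14e-29). Other endosomal receptors on the list were higher too, by 0.93 ± 0.04 for Tlr13, 0.83 ± 0.05 for Tlr3, 0.65 ± 0.04 for Tlr8 and 0.31 ± 0.05 for Tlr7. Unc93b1, which carries such receptors to the endosome, was higher by 0.34 ± 0.04. At the cell surface, the LPS receptor Tlr4 was at 70.5 and 67.5 CPM against 102 and 107 (0.60 ± 0.05) and its partner Ly96 (MD-2) at 0.39 ± 0.06. Tlr2, for lipopeptides, was lower by -0.20 ± 0.04 and Tlr1 did not pass (0.03 ± 0.04). Tlr5, the flagellin receptor, had 1 count in all of Ch25hKO and 38 in LXRdKO, a ratio of 35.5 with a 95% counting interval of 6.00 to 1440. Among the adaptors, Myd88 and Ticam1 were higher by 0.33 ± 0.05 and 0.29 ± 0.05, and the kinase-related inhibitor Irak3 and the ligase Traf6 were lower by -0.31 ± 0.04 and -0.24 ± 0.05.

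**Figure D4:**
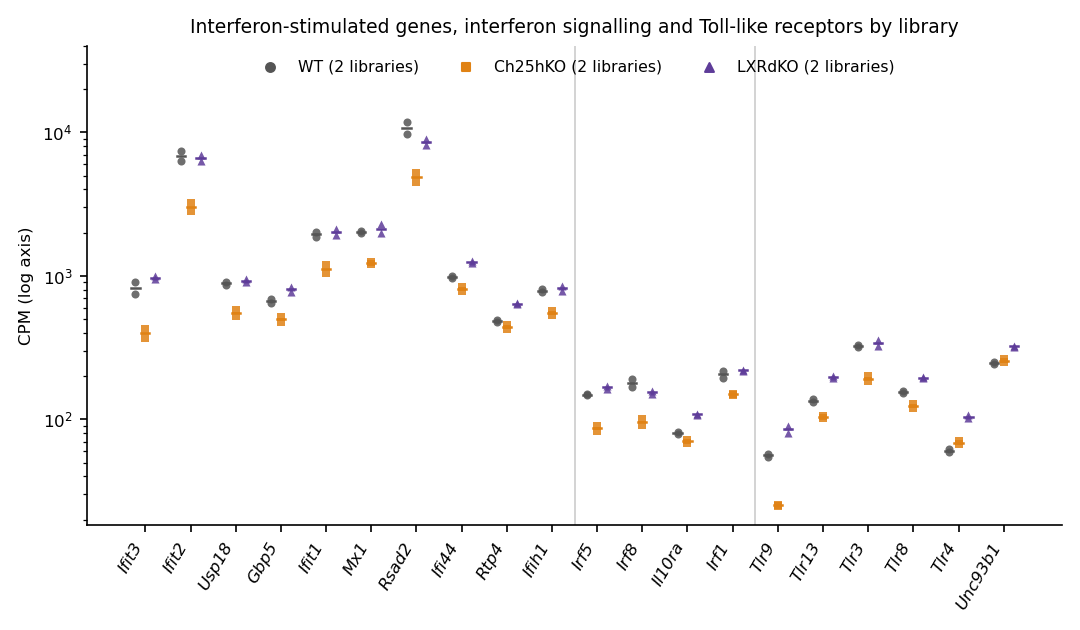
CPM (log axis) by library of the 10 interferon-stimulated genes, 4 interferon signalling genes and 6 Toll-like receptor genes with the lowest p in their lists, left to right between grey lines, with bars at genotype means of 2 libraries. LXRdKO lies above Ch25hKO in all 20 genes, and the WT position varies from gene to gene.

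Inflammatory cytokines and enzymes ran against these groups. Of 23 tested, 16 were lower and 4 higher, with a median of -0.49. Ptgs2 (COX-2), the inducible enzyme of prostaglandin synthesis, was at 2562 and 2659.7 CPM in Ch25hKO, 1139 and 1284 in LXRdKO and 2604 and 2608 in WT (-1.11 ± 0.05, edgeR adjusted p = 4.32e-22). Csf3, the granulocyte growth factor G-CSF, was at 16.6 and 18.5, 3.71 and 4.999 and 15.9 and 15.6 CPM (-2.01 ± 0.10). In both genes WT lay by Ch25hKO, so that LXRdKO stood apart. Il12b, the shared subunit of IL-12 and IL-23, was at 17.02 and 19.3 CPM in Ch25hKO and 7.43 and 7.04 in LXRdKO (-1.33 ± 0.09) but higher in WT (27.8 and 25.5). Nos2, which makes nitric oxide, and Inhba, an activin subunit, had that order too, with differences of -0.69 ± 0.05 and -0.70 ± 0.06. Tnf was at 460.5 and 456 CPM against 312 and 309 (-0.56 ± 0.04) with WT near LXRdKO (319 and 336), and Ptges, Lcn2 and Tnfsf15 were lower by -0.75 ± 0.05, -0.79 ± 0.05 and -0.72 ± 0.05. Il6 and Il10 were lower by -0.49 ± 0.05 and -0.37 ± 0.06. Saa3, an acute-phase protein and among the most abundant transcripts, was lower by -0.49 ± 0.06. Lif rests on 84 counts in Ch25hKO against 13 in LXRdKO, a ratio of 0.145 (0.0739 to 0.261). The 4 higher genes were Il15, which sustains NK and memory T cells (87.02 and 92.04 CPM against 191 and 204, 1.14 ± 0.05), Csf1 (0.67 ± 0.06), Ebi3 (0.15 ± 0.04) and Il23a (0.67 ± 0.25), the last at under 2 CPM. The Il23a call did not hold with DESeq2, nor when either Ch25hKO library or LXRdKO replicate 1 was left out (adjusted p = 0.164, 0.062, 0.0984 and 0.182).

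Chemokine and chemokine receptor genes moved both ways, with 12 of 24 higher, 8 lower and a median of 0.06. Lower genes included neutrophil attractants. Cxcl1 (chromosome 5, plus strand, 90891241 to 90893115) was at 67.6 and 62.4 CPM in Ch25hKO, 10.1 and 11.6 in LXRdKO and 80.2 and 76.5 in WT (-2.58 ± 0.06, edgeR adjusted p = 4.14e-33). Cxcl3 and Cxcl2 were lower by -1.67 ± 0.11 and -1.03 ± 0.05, and Cxcl5, at under 1 CPM, by -1.37 ± 0.37. Higher genes included those of the interferon-inducible CXCR3 ligands. Cxcl11 among them is annotated as a polymorphic pseudogene, so its transcript may not give a working protein. Cxcl10 was at 1701 and 1949.5 CPM against 4018 and 4576 (1.24 ± 0.06), Cxcl11 at 85.1 and 96.9 against 266 and 294 (1.62 ± 0.05), and Cxcl9 at 1.02 ± 0.05. WT lay between the genotypes for these 3, at 3254 and 3201, 180.1 and 183 and 725 and 744 CPM. Of the CC chemokines, Ccl22, Ccl3 and Ccl4 were lower (-0.79 ± 0.06, -0.55 ± 0.05 and -0.38 ± 0.05) and Ccl12, Ccl7 and Ccl5 higher (0.91 ± 0.09, 0.54 ± 0.08 and 0.26 ± 0.05). The receptor gene Ccr1 was higher by 0.79 ± 0.07.

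Genes of NF-κB control were lower in 9 of 20 and higher in 3, with a median of -0.07. Nfkbiz, an IκB family member that NF-κB needs for secondary targets such as Lcn2, was at 226 and 224 CPM in Ch25hKO, 104 and 106 in LXRdKO and 238 and 216 in WT (-1.10 ± 0.04, edgeR adjusted p = 2.69e-25). The feedback inhibitors Tnfaip3 (A20) and Nfkbia were lower by -0.65 ± 0.05 and -0.50 ± 0.04. Of the subunit genes, Nfkb1 did not pass (0.06 ± 0.04) and Rel was higher by 0.40 ± 0.04. Of 23 early response and MAP kinase genes, 9 were higher and 9 lower, with Ier3 at -1.03 ± 0.04, Fosl2 at -0.64 ± 0.04, Egr1 at 1.01 ± 0.08 and Fos at 0.75 ± 0.06. Of 17 eicosanoid genes, 6 were higher and 5 lower, with 3 higher without LXRdKO replicate 1 or LXRdKO replicate 2. Beside Ptgs2 and Ptges, Pla2g4a, which releases arachidonic acid, was lower (-0.42 ± 0.04), and Ptgs1, the constitutive cyclooxygenase, was higher (0.52 ± 0.11).

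**Figure D5:**
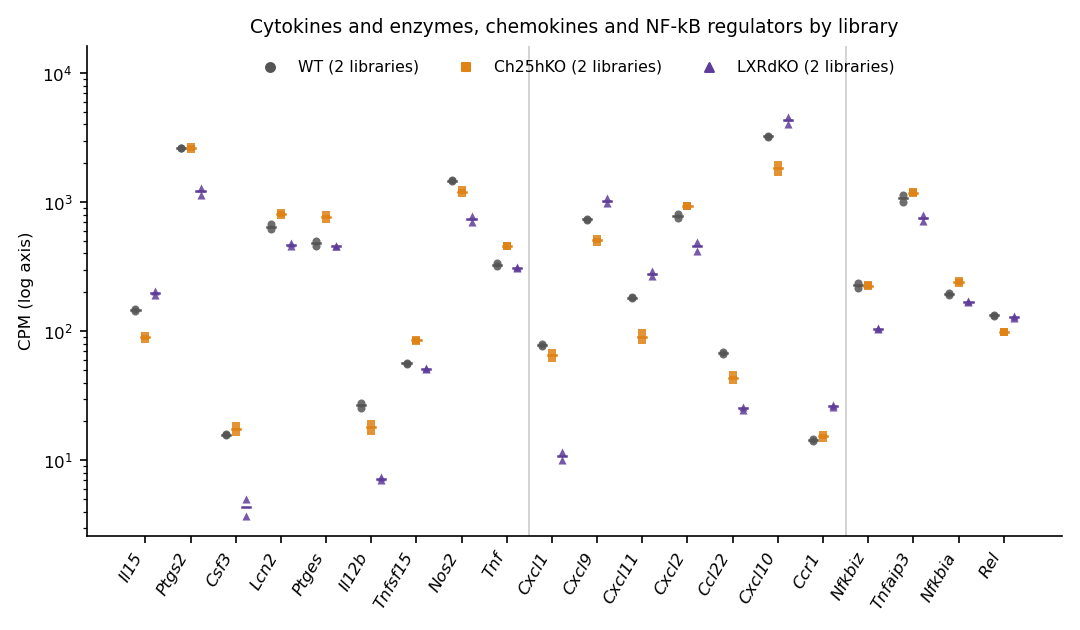
CPM (log axis) by library of the 9 cytokine and enzyme genes, 7 chemokine genes and 4 NF-κB genes with the lowest p in their lists, left to right between grey lines, with bars at genotype means of 2 libraries. Csf3, Ptgs2, Cxcl1 and Nfkbiz are low in LXRdKO with WT by Ch25hKO. Il15 and the CXCR3 ligand genes are higher in LXRdKO than in Ch25hKO.

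The IL-1 and inflammasome list moved mostly upward, with 12 of 19 higher and 3 lower and a median of 0.24, but its cytokines were among the lower genes. Il1a was at 894 and 945 CPM in Ch25hKO, 428 and 461 in LXRdKO and 728 and 731 in WT (-1.05 ± 0.05), and Il1b at 4010.2 and 4031, 2942 and 3014 and 2603 and 2744 (-0.43 ± 0.05, edgeR adjusted p = 1.24e-09). Higher members were Txnip, a thioredoxin-binding protein (78.97 and 81.8 CPM against 188 and 177 and 64.8 and 59.5 in WT, 1.19 ± 0.05), the DNA sensor Aim2 (0.78 ± 0.05), the IL-18 inhibitor Il18bp (0.54 ± 0.05), Mefv (0.47 ± 0.05) and the adaptor Pycard (0.45 ± 0.05). Casp1, which cleaves pro-IL-1β, did not pass (-0.05 ± 0.05), and Nlrc4 was lower (-0.43 ± 0.06).

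Antigen presentation genes were higher without exception among those that passed. Of 16 MHC class II and costimulation genes 12 were higher and 0 lower, with a median of 0.56, and of 16 MHC class I genes 10 were higher and 0 lower, with a median of 0.21. Without LXRdKO replicate 1 the class II list had 1 lower gene. Cd74, the invariant chain, was at 216 and 215 CPM in Ch25hKO, 381 and 409 in LXRdKO and 165 and 190.4 in WT (0.88 ± 0.05). H2-Aa and H2-Ab1, the chains of I-A, were higher by 0.72 ± 0.04 and 0.58 ± 0.04, and the costimulatory genes Cd86 and Cd80 by 0.66 ± 0.05 and 0.84 ± 0.14. For Cd74, H2-Aa and H2-Ab1 the mean level stood above WT in both genotypes and highest in LXRdKO. The list as a whole did not share this order. Among its 12 genes that passed, mean WT lay below both genotypes in 5, above both in 4 and between in 3. Tap1, the peptide transporter, and B2m, the class I light chain, were higher by 0.42 ± 0.05 and 0.21 ± 0.06.

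Receptors for debris and antibody were higher in 12 of 23 and lower in 7, with a median of 0.30, and lower in 4 without LXRdKO replicate 1. Mertk was at 33.03 and 35.4 CPM in Ch25hKO and 72.7 and 79.6 in LXRdKO, and Axl, its relative, at 0.75 ± 0.05. The complement genes C1qb and C1qc were higher by 0.48 ± 0.05 and 0.49 ± 0.05, the Fc receptor Fcgr4 by 0.80 ± 0.05 and the β-glucan receptor Clec7a by 0.88 ± 0.06. Scarb1, the HDL receptor SR-BI, was lower (24.01 and 23.1 CPM against 8.18 and 8.302, -1.51 ± 0.08), as were Marco (-0.65 ± 0.06), the inhibitory receptor Fcgr2b (-0.37 ± 0.05) and Clec4e (-0.51 ± 0.05). Lysosomal genes showed little net movement, with 7 of 26 higher and 9 lower and a median of 0.01. Leaving out Ch25hKO replicate 1 or either LXRdKO library left 4 higher lysosomal genes, and leaving out Ch25hKO replicate 2 left 5 lower ones. Lipa, the acid lipase, had the largest difference of them (0.51 ± 0.04) and lies 35.4 kb from Ch25h. Of 15 genes of alternative activation, 4 were higher (2 without Ch25hKO replicate 1 and 1 with the filter of 5 CPM) and 5 lower, among the latter Mrc1 (-0.50 ± 0.04) and Folr2 (-0.62 ± 0.06).

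Stress and metabolic genes differed by list. Of 25 endoplasmic reticulum and integrated stress genes 13 were higher and 5 lower, with a median of 0.15. The unfolded protein sensor Atf6 was higher by 0.64 ± 0.04, the stress factor Ddit3 by 0.73 ± 0.07 and the chaperone Hspa5 by 0.35 ± 0.05, while Slc7a11, the cystine importer, was lower (518 and 502 CPM against 254 and 269, -0.96 ± 0.05), as were Ddit4 (-1.45 ± 0.12) and Asns (-0.55 ± 0.09). Glycolytic and hypoxia genes were lower in 16 of 27 and higher in 5, with a median of -0.13. Adm, adrenomedullin, was at 5.74 and 5.09 CPM against 0.934 and 1.22 (-2.32 ± 0.17), and Ero1l, Gpi1 and Pfkfb3 were lower by -0.70 ± 0.04, -0.63 ± 0.05 and -0.60 ± 0.05. Other glycolytic enzymes differed by less, for instance Ldha by -0.22 ± 0.05, and Hk3 and Vegfa were higher by 0.33 ± 0.05 and 0.30 ± 0.05. Of 22 NRF2 and iron genes 11 were lower and 4 higher, with a median of -0.12, among them Hmox1, heme oxygenase (3275 and 3373 CPM against 1975 and 2000.0, -0.74 ± 0.05), and Tfrc, the transferrin receptor (-1.002 ± 0.07), which were lower, and Txn1 (0.38 ± 0.05), which was higher.

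Cell cycle genes were lower in 14 of 30 and higher in 7, with a median of -0.43 and 8 lower genes at least 2-fold apart. The proliferation marker Mki67 was at 225 and 198 CPM in Ch25hKO, 112 and 110.4 in LXRdKO and 113 and 127 in WT (-0.93 ± 0.05). Mitotic genes at low levels were lower by more, with Ccnb1 at 2.33 and 2.41 CPM against 0.4102 and 0.588 (-2.24 ± 0.24), Ccnb2 at -1.90 ± 0.19, Top2a at -1.40 ± 0.12 and Bub1 at -1.53 ± 0.21. WT did not lie on one side for this list: among its 21 genes that passed, mean WT was nearer to LXRdKO in 11 and to Ch25hKO in 10, and above both in 12. Ccnb1, for one, was at 2.75 and 2.99 CPM in WT. The D-type cyclins, which act in G1, were higher: Ccnd1 (chromosome 7, minus strand, 144929931 to 144939925) was at 33.9 and 37.9 CPM in Ch25hKO, 145 and 142 in LXRdKO and 142 and 117 in WT (2.001 ± 0.05, edgeR adjusted p = 4.09e-33), and Ccnd2 and Ccnd3 were at 0.46 ± 0.05 and 0.27 ± 0.06.

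By a rule that asked for at least 5 CPM on average, no overlap between the genotypes and a named gene, the 12 largest higher genes were led by Ch25h and Mid1, a microtubule-associated ubiquitin ligase. Mid1 was at 12.1 and 12.8 CPM in Ch25hKO and 68.5 and 75.98 in LXRdKO against 5.38 and 5.13 in WT (2.54 ± 0.06). It overlaps G530011O06Rik (3.84 ± 0.06) and its reads cannot be told apart from those of that gene without strand, so its value is uncertain. Beside Ccnd1 and Tlr9, the others were Uaca (13.2 and 15.4 CPM against 50.7 and 57.4, 1.92 ± 0.07), Gdf3 (1.84 ± 0.11), Tgtp1 (1.83 ± 0.06), Igsf9 (1.81 ± 0.12), Depdc7 (1.81 ± 0.10), the proton-sensing receptor Gpr65 (1.79 ± 0.06), the protease gene Napsa (1.78 ± 0.06) and Klk1b11 (1.78 ± 0.13). The 12 largest lower genes were both LXRs and 10 genes of sterol and lipid synthesis or transport, most of them given above.

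Neighbours of the deleted genes were counted because a knockout can carry altered or linked DNA on its flanks. Among the 20 tested genes nearest to Ch25h, 10 on each side, 10 were higher and 6 lower, and 5 differed at least 2-fold: Ifit2, Ifit3, Gm14446 (1.25 ± 0.07), I830012O16Rik (1.74 ± 0.05) and the pantothenate kinase gene Pank1 (2.01 and 1.63 CPM against 0.296 and 0.204, -2.85 ± 0.30). Gm14446 and I830012O16Rik lie 123.0 and 136.2 kb from Ch25h, between Ifit3 and Ifit1. Of the 5 genes only Pank1 thus lies outside the stretch from Ifit2 to Ifit1. Gm14446 and I830012O16Rik were not among the interferon-stimulated genes listed, and whether they respond to interferon was not tested. Ifit2 and Ifit3 are on the interferon-stimulated list, whose 37 members on other chromosomes were all higher too. The part of such genes in the counts around Ch25h was not tested. Within 5 Mb of Ch25h 12 of 56 genes differed at least 2-fold (21.4%), against 4.99% of all genes. Around Nr1h2 4 of the nearest 20 did so, and 10 of 101 within 5 Mb (9.9%). They include Napsa, at 27.8 kb, and the kallikreins Klk1b11 and Klk1b22, members of a family of close copies. Napsa was at 14.1 and 14.2 CPM in Ch25hKO, 47.8 and 49.7 in LXRdKO and 16.6 and 17.2 in WT. For Klk1b22 no read was counted in Ch25hKO (0 counts) and 85 were counted in LXRdKO, at least 26.5-fold higher with a floor of 3 counts over the group. Around Nr1h3 the count was 2 of 20, and 2 of 50 within 5 Mb (4.0%). Of these, Pacsin3 was at 0.761 and 0.505 CPM in Ch25hKO, 0.0911 and 0.136 in LXRdKO and 0.585 and 0.622 in WT. Lrp4 was at 10.7 and 11.6 CPM in Ch25hKO, 26.3 and 30.3 in LXRdKO and 29.3 and 28.8 in WT. WT thus lay by Ch25hKO for Pacsin3 and by LXRdKO for Lrp4. Effects of the deletions on their neighbours and of linked DNA cannot be told apart here from effects of the missing proteins.

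The cells were checked against marker genes. The summed level of 12 macrophage markers, among them Csf1r, Lyz2, Cd68 and Mertk, was 17983 and 18657 CPM in Ch25hKO and 21585 and 21429 in LXRdKO, with 7 markers higher and 1 lower. Cebpb, a myeloid transcription factor, was lower by -0.45 ± 0.05. Stromal markers summed to 42.7 and 39.7 CPM in Ch25hKO, 25.3 and 24.3 in LXRdKO and 26.7 and 26.8 in WT, and 6 of 9 tested were lower and 1 higher (0 without Ch25hKO replicate 2 or LXRdKO replicate 2), for example Dcn (-1.17 ± 0.12) and Col1a2 (-1.52 ± 0.17). Fewer stromal cells and less RNA per cell cannot be told apart in bulk samples, and the part of this difference in other results was not tested. Neutrophil markers summed to 436.3 and 436.5 CPM against 408.3 and 417.7, with 3 of 7 tested lower and 1 higher, among them S100a8 (48.1 and 50.4 CPM against 16.4 and 16.6, -1.58 ± 0.06). Dendritic markers summed to 32.2 and 32.8 against 36.8 and 38.5, and to 48.3 and 49.0 in WT. Of 11 tested, 2 were higher and 3 lower, with a median of -0.20. The largest difference was that of Xcr1 (4.64 and 4.95 CPM against 13.1 and 14.6, 1.53 ± 0.10), and the lower genes included Dpp4 (-0.96). The B cell markers, and separately those of T and NK cells, summed to under 5 CPM in each of the 4 libraries. Mast cell and basophil markers summed to 50.05 and 53.6 CPM in Ch25hKO and 52.7 and 55.5 in LXRdKO, nearly all of it Hdc, histidine decarboxylase (0.07 ± 0.05), and 0 of 3 tested passed, while Cma1 and Mcpt4 were at 0 in all libraries. Erythroid and megakaryocyte markers summed to 43.6 and 44.4 CPM against 31.6 and 35.4, nearly all of it Pf4, platelet factor 4, which was lower (39.9 and 40.9 CPM against 28.3 and 31.9, -0.42 ± 0.06) and was the only 1 of 4 tested to pass, while the globin genes Hba-a1, Hbb-b1 and Hbb-b2 were at 0 in all libraries. The part of Pf4-bearing cells in other results was not tested. Ribosomal protein genes (8 of 78 higher, 22 lower, median -0.02) and nuclear genes of oxidative phosphorylation (10 of 72 higher, 7 lower, median 0.03) lay close to the median of all genes. The numbers of higher genes fell to 1 and 3 ribosomal protein genes without Ch25hKO replicate 1 and LXRdKO replicate 2, and to 5 or 6 oxidative phosphorylation genes without any 1 of the 4 libraries and 1 with DESeq2, and the lower ones of the latter to 3 without Ch25hKO replicate 2 or LXRdKO replicate 2.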

How the data were processed

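Libraries were made from total RNA after amplification to cDNA (Ovation RNA-seq V2, 100 ng of RNA), per the labels' protocols, so reads are not independent molecules and counting intervals cover counting error only. The authors deposited raw read counts per gene symbol in 1 table. The submitters' processing notes name CASAVA, STAR 2.3.0, HTSeq and mm10. Annotation, counting mode and strand are not given in the sources, so overlapping genes and close copies are uncertain.

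The 4 knockout libraries were fitted alone in edgeR 4.0.16 (R 4.3.3) with TMM scaling, filterByExpr (12673 of 23337 symbols kept, 99.98% of the counts) and a robust quasi-likelihood F test, with calls at an adjusted p under 0.05. There were 2 residual and 41.5 prior degrees of freedom and a biological coefficient of variation of 3.27%. Standard errors are the log2 fold change divided by the root of F. Simulated counts were drawn for 12673 genes with the trend of spread by level from the same fit, and 200 genes were changed. Differences in spread between genes of like level were left out of the simulation. The fit recovered 89 of 100 changes of 2-fold and 72 of 100 of 1.5-fold, with 0 wrong signs and 7 false calls. In the data a far larger share of genes passed, so these rates may not carry over. CPM values used TMM over all 6 libraries, which moved differences by at most 0.00132 on the log2 scale. Gene positions came from GENCODE M21 (GRCm38), with 12490 of 12673 symbols matched, and promoters from RefSeq (GRCm38.p6).

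The comparison, the 37 gene lists and the naming rule were chosen with earlier results of these data known. The rule named the deleted genes, 10 sterol and cytokine genes, the 12 largest changes in each direction at a mean of at least 5 CPM without overlap, and in every list the 4 tested genes of lowest p. A few genes the rule selects are not reported here. Other members named were chosen after their values were seen. Alternatives were RLE and upper-quartile scaling, DESeq2 1.42.0, limma-voom (limma 3.58.1), no low-count filter, a filter of 5 CPM, a fit of all 6 libraries, the replicate number as a block, each library left out in turn, and a promoter window of the 250 bases before the start.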

Additional observations from a re-analysis of the deposited data

How the results depend on the processing

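The genes called higher and lower numbered 2926 and 2823. They numbered 3005 and 2761 with RLE scaling, 2794 and 2928 with upper-quartile scaling, 2250 and 1897 with DESeq2, 2925 and 2827 with voom, 2888 and 2871 without the low-count filter and 2509 and 2402 in the fit of all 6 libraries. With at least 5 CPM in 2 libraries they were 2379 and 2361 of 8258 genes, and the at least 2-fold genes among them were 116 and 116 in place of 292 and 341, because genes at low levels were no longer tested. Without 1 library they ranged from 2415 to 2683 and from 2303 to 2611, with at least 2-fold genes from 255 to 326 and from 321 to 367. A group with 1 library left took its spread from the other group. With the replicate number as a block they were 3091 and 2999, of which 2924 and 2822 were also called without it. Same-numbered libraries deviated together with a correlation of 0.111 over only 2 pairs, and the labels tie the numbers to no shared animal or day, so the number was not taken as a pairing. No gene that passed was called in the opposite direction in any of the 12 alternatives. Of 263 genes followed singly, 246 kept their direction and their side of the threshold in every alternative that gave them a value; 226 were tested in all 12 and held in each, and 31 were not tested with the 5 CPM filter. The counts of lower sterol genes, 8 and 12, held with each library left out, and those of interferon-stimulated genes ranged from 38 to 40. Some genes that did not pass changed sign when 1 library was left out, and their log2 fold changes ranged from -0.18 to 0.0095 for Ebp, -0.30 to 1.88 for Ms4a1, -0.48 to 0.19 for Cr2, -0.56 to 0.40 for Kit, -0.60 to 0.067 for Itga2b and -0.12 to 0.034 for Alas2. Small list counts moved with the method. With the 5 CPM filter the lower genes numbered 6 in place of 14 in the cell cycle list, 2 in place of 6 among stromal and 1 in place of 3 among neutrophil markers, the higher dendritic markers 1 in place of 2, and the nuclear receptors 3 higher and 3 lower in place of 5 and 5, as they did with DESeq2. With DESeq2 the higher genes also numbered 1 in place of 10 for oxidative phosphorylation, 3 in place of 8 for ribosomal proteins, 3 in place of 6 for eicosanoids, 1 in place of 2 for SREBP and uptake and 0 in place of 1 for stromal markers, and the lower ones 3 in place of 7 for oxidative phosphorylation and 1 in place of 3 for dendritic markers. In the fit of all 6 libraries the lower clearance genes numbered 4 in place of 7, the higher lysosomal genes 4 in place of 7, the higher ribosomal genes 3 in place of 8, and the oxidative phosphorylation genes 6 higher and 4 lower in place of 10 and 7. Within the 250 bases before the start the shares of all promoters with a CCAAT box and with the interferon element form were 40.2% and 3.48%. Low counts limit Ifnb1, Il23a, Lif and Tlr5.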
